A study of Mus musculus with 12 samples.

Results

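The 9 genes described here encode parts of the synaptonemal complex and of meiotic cohesin: Sycp1, Sycp2, Sycp3, Syce1, Syce2, Tex12, Smc1b, Stag3 and Rec8. They were chosen by symbol, and all 9 were found among the 12845 genes of both deposited tables. RNA was sequenced from mouse gonads at E13.5 in 12 libraries, 3 in each of 4 groups: female primordial germ cells (PGCs), male PGCs, female soma and male soma. In all 4 groups the strain is given as Oct4GFPxICR: the sires carried Oct4GFP, a reporter in which the Oct4 gene, active in germ cells, drives a green fluorescent protein. Flow cytometry put GFP-positive cells into the PGC groups and all other gonad cells into the soma groups, so soma is a mixture of cell types. Spike-in RNA was added in proportion to cell number, because the series asks about the amount of RNA per cell. The labels do not say how many embryos went into a library, and p-values measure only the spread between these libraries.

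In meiotic prophase, cohesin rings hold sister chromatids together and help to build a protein axis along each chromosome. The synaptonemal complex then joins the axes of homologous chromosomes along their length: SYCP2 and SYCP3 lie on the axis, SYCP1 forms the transverse filaments, and SYCE1, SYCE2 and TEX12 belong to the central element. SMC1B, STAG3 and REC8 replace subunits of mitotic cohesin. In the mouse, germ cells of the fetal ovary enter meiosis around this stage, whereas those of the fetal testis stop dividing and enter meiosis only after birth.

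Levels are given as CPM, the reads of a gene scaled to all reads of the table in that library, from whole reads recovered from the table normalized to cell number. Library totals ran from 6454322 to 24791414 reads. Changes are log2 differences in the table normalized to read depth, or in the other table where marked as per cell, as estimate ± SE from limma with Benjamini-Hochberg adjustment over all genes. The read depth values draw low levels together, so that their changes are often smaller than those of the reads. Germ cell markers summed to between 3950.1 and 4226 CPM in female PGCs and between 5093 and 5418 CPM in male PGCs. The summed germ cell markers lay between 97.8 and 270.2 CPM in female soma and between 80.7 and 98.7 CPM in male soma. Markers of gonadal epithelium and stroma summed to between 9.08 and 44.2 CPM in female PGCs and between 6546 and 7189 CPM in female soma, and to between 17.2 and 37.2 CPM in male PGCs and between 4772 and 5624 CPM in male soma. Sertoli cell markers summed to between 0.0956 and 1.08 CPM in female PGCs and between 18.6 and 25.6 CPM in female soma, and to 84.9, 39.1 and 34.2 CPM in male PGC replicates 1, 2 and 3, against 515 to 616 CPM in male soma. Pregranulosa cell markers summed to between 36.1 and 54.8 CPM in female PGCs and between 400.1 and 470.2 CPM in female soma, and to between 2.87 and 3.95 CPM in male PGCs and between 147 and 194 CPM in male soma. Transcripts listed as supporting cell markers of each sex were thus detected in its PGC libraries. The sums do not say which cells made these transcripts, and their part in the results was not tested. Within female soma, replicates 1 and 2 carried more of most germ cell transcripts than replicate 3, for example Ddx4, a germ cell RNA helicase, at 24.0, 35.6 and 2.16 CPM in replicates 1, 2 and 3. Results that use female soma are therefore also given without replicates 1 and 2, a choice made with the data in view. Such a fit keeps 1 female soma library, so its SE and p-values come from the spread within the other groups and assume that the lone library varies like them.

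In the GENCODE vM21 annotation (GRCm38) the 9 are protein-coding genes on 9 different chromosomes. The synaptonemal complex genes are Sycp1 (chr3:102818499-102936100), Sycp2 (chr2:178345293-178407685), Sycp3 (chr10:88459569-88473236), Syce1 (chr7:140777229-140787852), Syce2 (chr8:84872111-84888221) and Tex12 (chr9:50556819-50561325). The cohesin genes are Smc1b (chr15:85064689-85131964), Stag3 (chr5:138280240-138312393) and Rec8 (chr14:55618037-55625395).

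Upstream sequence is shown for 5 of the genes as examples. RefSeq (GRCm38.p6) windows of 250 bases before to 50 bases after a start were available for all 9. Short motifs were searched on both strands: CACGTG (an E-box), TTCCCGC (bound by E2F factors) and CNCCTCAG (reported for STRA8, a factor that starts meiosis). In the lines below, capitals mark the E-box and the E2F motif. The stretches of Sycp2 and of the upstream start of Syce2, not shown, held neither of these motifs. Each stretch begins 150 bases before the RefSeq start and ends at that start, or at the GENCODE gene boundary where it lies further upstream.
Sycp1, chr3:102936101-102936250, minus strand: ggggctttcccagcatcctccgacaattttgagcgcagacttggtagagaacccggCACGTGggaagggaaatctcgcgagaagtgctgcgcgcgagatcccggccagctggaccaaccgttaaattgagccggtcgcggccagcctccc
Sycp3, chr10:88459437-88459568, plus strand: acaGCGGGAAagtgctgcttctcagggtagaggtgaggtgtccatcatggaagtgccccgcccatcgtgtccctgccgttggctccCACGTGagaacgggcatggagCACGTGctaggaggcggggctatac
Tex12, chr9:50561326-50561418, minus strand: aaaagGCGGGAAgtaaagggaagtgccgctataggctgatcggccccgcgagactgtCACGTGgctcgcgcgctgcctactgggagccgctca
Smc1b, chr15:85131965-85132107, minus strand: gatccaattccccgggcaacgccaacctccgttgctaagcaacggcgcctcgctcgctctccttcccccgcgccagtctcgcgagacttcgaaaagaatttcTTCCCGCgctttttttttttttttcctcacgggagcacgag
Syce1, chr7:140787855-140788004, minus strand: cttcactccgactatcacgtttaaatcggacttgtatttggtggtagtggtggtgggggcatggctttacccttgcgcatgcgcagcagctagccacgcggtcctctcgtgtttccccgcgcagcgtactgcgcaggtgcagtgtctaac

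The E-box was found in windows of 5 of the 9 genes (Sycp1, Sycp3, Syce2, Tex12 and Stag3), against 8.09% of 27025 genes with a window. The Sycp3 window held 2 E-boxes, beginning 64 and 43 bases before the start. Those of Sycp1 and Tex12 began 94 and 93 bases before it. The E2F motif was found in 5 of the 9 (Sycp3, Syce2, Tex12, Smc1b and Stag3), against 5.29% of genes, and the STRA8 motif in 3 (Sycp1, Syce2 and Tex12), against 9.12%. The STRA8 motif of Syce2 shared bases with its E2F motif. Every window of the 9 genes held at least 10 CpG pairs, against a median of 7 over all windows. These matches describe the letters only.

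All 9 genes had a higher CPM in every female PGC library than in any male PGC library, against 40.6% of all genes. By limma, 8 of the 9 were higher in female PGCs, against 32.8% of all genes tested, and Sycp2 missed the threshold. With 1 library left out the count lay between 7 and 9. Without female PGC replicate 3 it was 8, with Sycp2 called and Sycp1 not. The median change of the 9 genes was 1.78 on the log2 scale and that of all genes was 0.01. Rec8 had the largest change of the 9, 3.58 ± 0.30 (adjusted p = 2.32e-07), and Syce2 the smallest, 1.11 ± 0.16 (adjusted p = 3.5e-05). All 9 genes were also detected in every male PGC library.

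**Figure D1:**
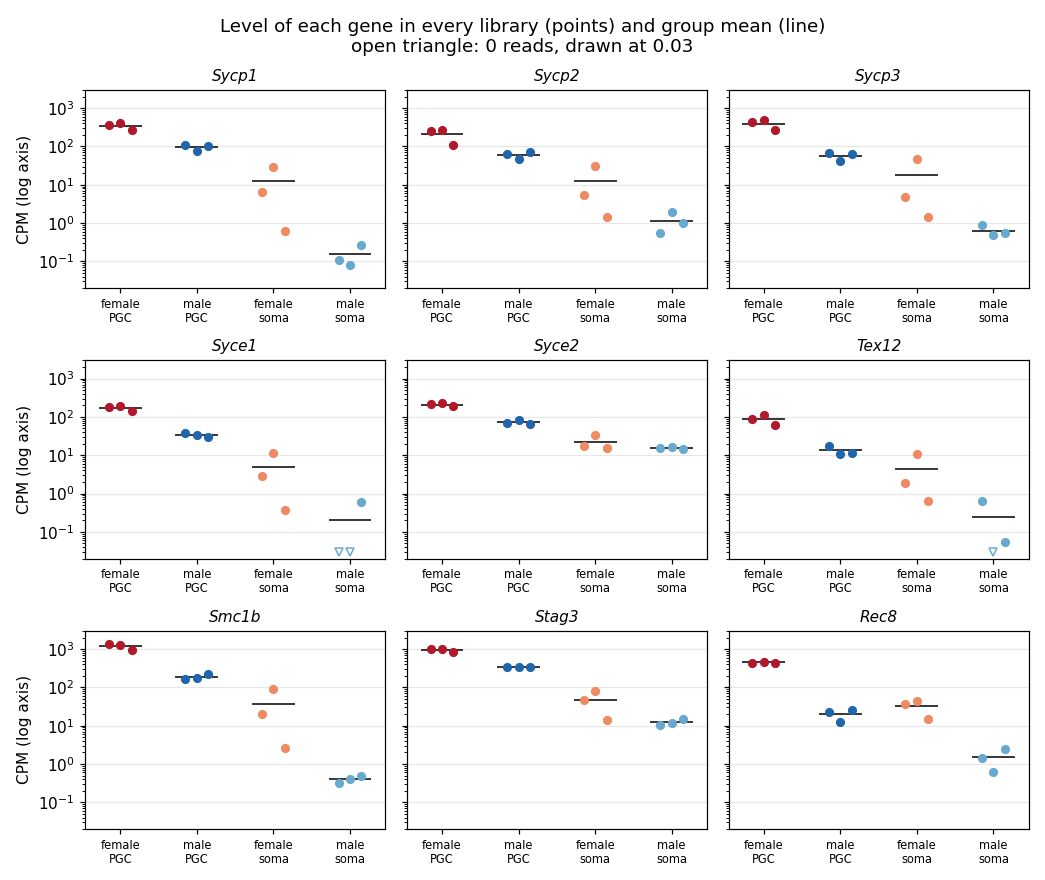
Level of each of the 9 genes in CPM on a log axis, with 1 point per library, a line at the group mean and open triangles for libraries with 0 reads. Every female PGC library lies above every male PGC library in all 9 panels, and in female soma replicate 2 is the highest library in every panel.

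Among the axis proteins, Sycp3 had 443, 487 and 262 CPM in female PGCs and 68.0, 42.0 and 62.1 CPM in male PGCs. Its mean was 6.93-fold higher in female PGCs, and it rose by 2.20 ± 0.61 (adjusted p = 0.00615). Sycp2, the partner of SYCP3 on the axis, had 256, 263 and 108 CPM in female PGCs and 63.7, 46.5 and 72.3 CPM in male PGCs. The Sycp2 groups did not overlap, but female replicate 3 lay far below the other libraries of its group, and the change of 1.27 ± 0.54 had an adjusted p of 0.0523 (limma). Over the PGC libraries alone the same change had an SE of 0.27 and an adjusted p of 0.0029. The wider SE of the fit over all groups included the spread of Sycp2 in female soma. In the GENCODE annotation, 660 exonic bases of Sycp3 overlap Chpt1 on the opposite strand, and the sources used here do not give the strand setting of the counting. Chpt1 averaged 23.8 ± 2.04 CPM in female PGCs and 30.7 ± 0.888 CPM in male PGCs (SD, n = 3 each). The part of this overlap in the Sycp3 levels was not tested.

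The transverse filament gene Sycp1 had 364, 406 and 273 CPM in female PGCs and 108, 78.5 and 105 CPM in male PGCs. The groups did not overlap, and the change was 1.42 ± 0.59 (adjusted p = 0.0466). This call ended under 13 alternatives, among them leaving out any 1 male PGC, male soma or female PGC library or female soma replicate 1, with adjusted p between 0.0564 and 0.121, while the change stayed between 1.30 and 1.57. Without female soma replicate 2 the adjusted p was 0.00293, and over the PGC libraries alone it was 4.02e-05.

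Of the central element genes, Syce1 had 182, 189.6 and 139.8 CPM in female PGCs and 38.4, 34.3 and 29.4 CPM in male PGCs. Tex12, which pairs with SYCE2 in the central element, had 90.3, 109.5 and 59.9 CPM in female PGCs and 17.4, 11.03 and 11.7 CPM in male PGCs. Syce2 had 218, 224 and 190.2 CPM in female PGCs and 68.2, 84.0 and 67.1 CPM in male PGCs. These 3 genes thus had separate groups but unlike ratios: the female mean was 5.01-fold higher for Syce1, 6.47-fold for Tex12 and 2.89-fold for Syce2. The tested changes were 1.78 ± 0.50 for Syce1 (adjusted p = 0.00666) and 1.97 ± 0.46 for Tex12 (adjusted p = 0.00192).

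The cohesin genes held both the lowest and the highest ratio of the group. Smc1b, the meiotic SMC1 subunit, had 1323, 1274 and 937 CPM in female PGCs and 169, 181 and 219.8 CPM in male PGCs. Stag3, the meiotic STAG subunit, had 1024, 1001 and 843 CPM in female PGCs and 342, 331 and 335 CPM in male PGCs. Rec8, the meiotic kleisin that closes the ring, had 444, 470.5 and 436 CPM in female PGCs and 22.8, 12.6 and 25.9 CPM in male PGCs. In each case the groups were separate, and for Rec8 the lowest female library lay far above the highest male library. The female mean was 22.0-fold higher for Rec8, 6.20-fold for Smc1b and 2.84-fold for Stag3. Smc1b rose by 2.12 ± 0.60 (adjusted p = 0.00666) and Stag3 by 1.14 ± 0.31 (adjusted p = 0.00487).

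**Figure D2:**
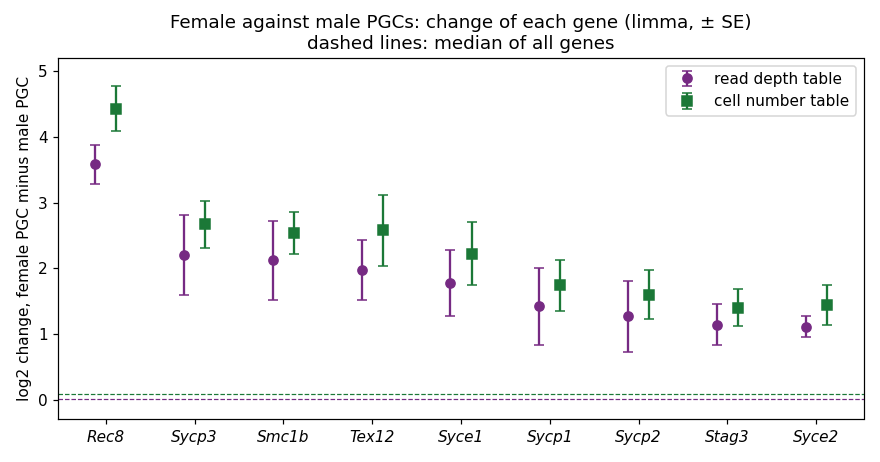
Change between female and male PGCs for each gene, as log2 of female minus male with SE bars from limma, in the read depth table and in the cell number table. Dashed lines mark the median of all genes in each table, 0.01 and 0.08. Rec8 is highest in both tables, at 3.58 and 4.43.

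Per cell, all 9 genes were higher in female than in male PGCs, against 24.3% of all genes, with a median of 2.22 for the 9 genes and 0.08 for all genes. The abbreviation that names this table was read as cell number normalization from the spike-in protocol. Rec8 was higher by 4.43 ± 0.34, Sycp3 by 2.67 ± 0.36, Tex12 by 2.58 ± 0.54 and Stag3 by 1.40 ± 0.28. In this table limma took each SE from the trend with level alone, not from the gene's own spread. Without the trend 5 of the 9 stayed past the threshold, and with robust variances 3 did. The share of all genes past the threshold was not computed under these settings.

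Per kilobase of exon, the order of the genes differed between the PGC groups. In female PGCs Sycp3 and Smc1b led, at 314 ± 94.4 and 291 ± 51.9 CPM per kb (SD, n = 3), with overlapping libraries. Stag3 at 167 ± 17.2 and Rec8 at 153 ± 6.23 CPM per kb followed, also overlapping each other but separate from Smc1b above and Syce1 below. Syce1, Syce2, Sycp1 and Tex12 lay between 117 and 85.2 CPM per kb with neighbours that overlapped, and Sycp2 was last at 35.0 ± 14.7 CPM per kb. In male PGCs Stag3 led at 58.7 ± 0.928 CPM per kb and did not overlap Smc1b, which was next at 46.9 ± 6.53 CPM per kb. Rec8 stood at rank 4 in female PGCs and at rank 9 in male PGCs, at 6.96 ± 2.37 CPM per kb, where it overlapped Sycp2.

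The meiotic cohesin subunits were set against their mitotic counterparts in the same library, per kilobase. Smc1b over Smc1a was 13.2, 15.3 and 8.85 in female PGCs and 1.33, 1.41 and 1.81 in male PGCs. Stag3 over the sum of Stag1 and Stag2 was 4.71, 4.87 and 4.22 in female PGCs and 1.91, 1.84 and 1.86 in male PGCs. Rec8 over Rad21 was 2.94, 3.72 and 2.24 in female PGCs and 0.0592, 0.0292 and 0.0714 in male PGCs. Each ratio was thus higher in every female PGC library than in any male PGC library, and in male PGCs Rec8 was far below Rad21. Exact two-sided permutation tests of the 3 log2 ratios between female and male PGCs each gave p = 0.1 (n = 3 each), the smallest value this design allows, and 0.1 after adjustment. Lengths are those of the union of annotated exons. Another choice of transcripts would move the Smc1b and Rec8 ratios of all groups alike. The Stag3 ratio could move unequally between groups, because its divisor adds Stag1 and Stag2. In male PGCs the sizes of the Smc1b and Stag3 ratios rest on the exon lengths. Without them Stag3, at 336 CPM, was still above Stag1 (200.4 CPM) and Stag2 (119 CPM) together in each library. Smc1b had 190.0 CPM and Smc1a 179 CPM. By library Smc1b had 169, 181 and 219.8 CPM against 182, 182 and 173 CPM of Smc1a, a mixed order.

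**Figure D3:**
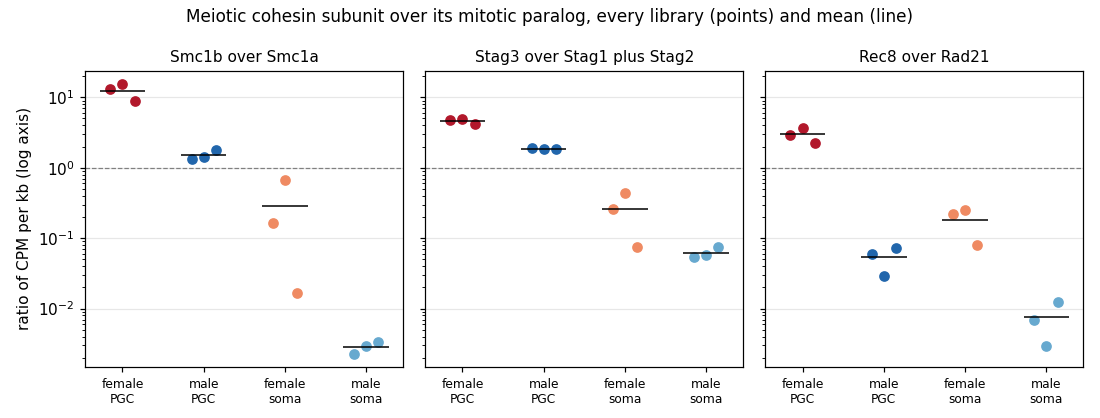
Ratio of each meiotic cohesin subunit to its mitotic counterpart, in CPM per kb on a log axis, with 1 point per library and a line at the mean. The dashed line marks a ratio of 1. Rec8 over Rad21 is above 1 in the female PGC libraries, at 2.24 to 3.72, and below 0.1 in the male PGC libraries.

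Of the 5 genes of the mitotic cohesin core, 2 were higher and 2 lower in female PGCs by limma, close to the shares of all genes (32.8% higher and 32.5% lower). Rad21, the mitotic kleisin, was at 227 ± 49.8 CPM in female PGCs and 567 ± 50.02 CPM in male PGCs (SD, n = 3 each), a change of -1.19 ± 0.10 (adjusted p = 1.82e-07). Smc1a had a change of -0.42 ± 0.08 (adjusted p = 0.000289). Smc3, which pairs with either SMC1 protein, was higher by 0.29 ± 0.06 (adjusted p = 0.00118), at 654 ± 26.5 CPM in female PGCs and 460.2 ± 19.4 CPM in male PGCs. Per cell, Rad21 was the only one of the 5 past the threshold, at -1.44 ± 0.28, where 17.7% of all genes were lower.

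Of 15 measured genes that load, release, protect or cleave cohesin, 5 were higher and 7 lower in female PGCs, with a median of -0.13, where 32.8% of all genes were higher and 32.5% lower. Cdca5 (sororin), which stabilizes cohesion in dividing cells, had a change of -1.06 ± 0.10 (adjusted p = 4.51e-07), at 49.2 ± 4.24 CPM in female PGCs and 114 ± 9.01 CPM in male PGCs. Esco2, an acetyltransferase that establishes cohesion, rose by 0.89 ± 0.20 (adjusted p = 0.00162). Wapal, which opens the ring, stood at -0.02 ± 0.07 (adjusted p = 0.82), and the separase gene Espl1 at -0.09 ± 0.06 (adjusted p = 0.212). The shugoshin genes Sgol1 and Sgol2a, whose products protect centromeric cohesin, were lower by -0.52 ± 0.12 and -0.56 ± 0.13 (limma, adjusted p = 0.0018 and 0.00132), named here after their values were seen.

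Of 24 other measured genes of the meiotic axis, synapsis, telomere attachment and recombination, 16 were higher and 1 lower in female PGCs, with a median of 1.53, against 32.8% of all genes higher and 32.5% lower. The list held 32 symbols, among them alternative names of one gene, and a gene detected mainly in female PGCs is in the tables through those libraries, so the count is a description. Stra8 rose by 6.22 ± 0.83 (adjusted p = 1.72e-05), to 564 ± 99.9 CPM in female PGCs, against 3.17 ± 1.93 CPM in male PGCs. Rad21l, a further meiotic kleisin, rose by 4.11 ± 0.76 (adjusted p = 0.000289), at 70.1 ± 31.2 CPM in female PGCs and 2.13 ± 2.53 CPM in male PGCs. Tex15, needed for meiotic recombination, rose by 1.83 ± 0.36 (adjusted p = 0.000495), and Skp1a, a general ubiquitin ligase subunit, stood at -0.05 ± 0.06 (adjusted p = 0.504). The member that was lower was Trip13, an ATPase that removes axis proteins from synapsed chromosomes, at -0.54 ± 0.08 (adjusted p = 2.85e-05).

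Within female PGCs, replicate 3 was the lowest library for 9 of the 9 genes. Its level relative to the mean of the other libraries ranged from 0.416 for Sycp2 and 0.563 for Sycp3 to 0.953 for Rec8. In the same library Pou5f1 (Oct4) had 334 CPM, against 238 and 249 CPM in replicates 1 and 2, and Rad21 had 281 CPM, against 217 and 182. Relative to the mean of the other libraries, the germ cell markers Dnd1 (1.94), Sall4 (1.55), Prdm1 (1.48), Dppa3 (1.29) and Kit (1.23) were also higher in replicate 3. Ddx4 (0.965), Dazl (0.929), Mael (0.898) and Tdrd1 (0.866) were lower in it. The part of these differences in the result was not tested. In male PGCs, replicate 2 was the lowest library for 6 of the 9 genes, with Rec8 at 0.517 and Sycp3 at 0.645 of the other libraries. The shares of all genes lowest in these PGC libraries were not computed.

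Against the soma of the same sex, all 9 genes were higher in PGCs of both sexes, with no overlap of libraries in females (39.1% of all genes) or in males (37.6%). In females the 9 of 9 compared with 38.7% of all genes, with a median change of 3.76 for the 9 genes and -0.05 for all genes. In males the 9 of 9 compared with 39.1% of all genes, with a median of 4.13 for the 9 genes and -0.06 for all genes. Per cell the medians were 7.52 in females, where all genes had 2.36 and 77.2% of genes were called higher, and 8.07 in males, where all genes had 1.42 and 64.0% were called higher. Without female soma replicates 1 and 2 the median in females was 5.16, set against 1 female soma library. In bulk samples fewer cells of a type and less RNA per cell cannot be told apart.

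In male soma some of the genes were close to 0 and others were not. Sycp1 had 8 reads, Tex12 7 reads, Syce1 11 reads and Smc1b 22 reads over all 3 male soma libraries, and Syce1 had 0 reads in replicates 1 and 2. Syce2, by contrast, had 73.1 ± 9.48 CPM in male PGCs and 15.6 ± 1.25 CPM in male soma (SD, n = 3 each), a 4.67-fold difference. Stag3 had 336 ± 5.32 CPM in male PGCs and 12.2 ± 2.28 CPM in male soma, a 27.5-fold difference. Smc1b, at 190.0 ± 26.4 CPM in male PGCs and 0.407 ± 0.0809 CPM in male soma, differed 467-fold. The tested change was 6.08 ± 0.60 for Smc1b (adjusted p = 3.18e-07) and 1.76 ± 0.16 for Syce2 (adjusted p = 1.45e-07). Syce2 was thus the gene of the 9 with the smallest difference between germ cells and soma in males, and its soma level was 21.7%, 23.0% and 19.6% of the male PGC mean. The germ cell marker Ddx4 reached 0.366%, 0.360% and 0.569% in the same libraries.

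Female soma was less even. Smc1b had 937 to 1323 CPM in female PGCs and 20.3, 89.9 and 2.54 CPM in female soma. Sycp3 had 262 to 487 CPM in female PGCs and 4.67, 48.3 and 1.40 CPM in female soma. In female soma, replicate 2 was the highest and replicate 3 the lowest library for 9 of the 9 genes. The share of all genes in this order was not computed, and the 9 genes vary together (median r = 0.98 over the 12 libraries). As a share of the female PGC mean, the 9 genes had medians of 2.18%, 9.65% and 0.669% in replicates 1, 2 and 3. For Ddx4 these shares were 2.84%, 4.204% and 0.255%, and for Dazl, a germ cell RNA-binding protein, 2.32%, 5.63% and 0.299%. Mael, Tdrd1 and Kit also had a larger share in replicate 2 than in replicate 1. The other germ cell markers had a smaller one: Pou5f1 (3.17%, 2.19% and 0.558%), Dppa3, Sall4, Dnd1 and Prdm1. Replicate 2 thus held a larger share of the 9 genes (6.84% to 15.9%) than of Ddx4, Dazl or Pou5f1 (2.19%). Kit and Prdm1, which the soma also expresses, had shares above 20% in every female soma library. The part of germ cell transcripts in the female soma values was not tested.

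**Figure D4:**
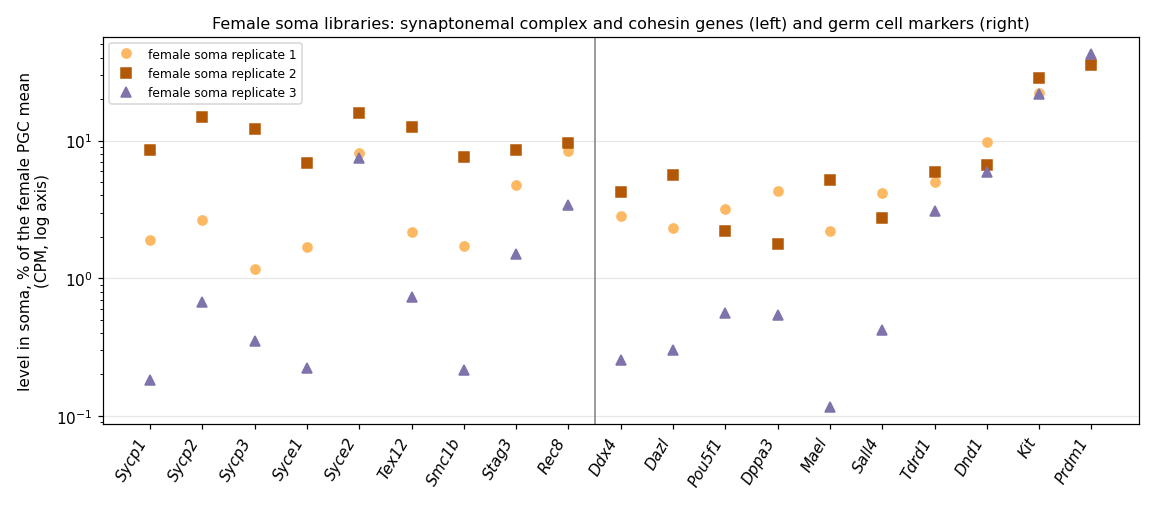
Level of each of the 9 genes and of 10 germ cell markers in the female soma libraries, as a percentage of the female PGC mean in CPM on a log axis. In replicate 2 the 9 genes lie between 6.84% and 15.9%, and in replicate 3 Sycp1, Syce1 and Smc1b lie near 0.2%.

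In replicate 3, the female soma library with the least Ddx4, 3 of the 9 genes kept shares above 1%: Syce2 at 7.41%, Rec8 at 3.39% and Stag3 at 1.49%. Of the germ cell markers, Dnd1 (5.87%), Tdrd1 (3.10%), Kit (21.9%) and Prdm1 (42.2%) also kept shares above 1% there, and the others did not. Syce2 had 17.1, 33.4 and 15.6 CPM in female soma and 15.8, 16.8 and 14.3 CPM in male soma. The sexes overlapped, and the change in soma was 0.28 ± 0.16 (limma, adjusted p = 0.239). Rec8 had 37.6, 43.4 and 15.3 CPM in female soma and 1.42, 0.605 and 2.45 CPM in male soma, without overlap. The change of Rec8 was 3.06 ± 0.30 (adjusted p = 6.03e-06), and with female soma replicate 3 alone it was 2.35 ± 0.35 (adjusted p = 0.000719, with the spread of the other groups).

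Between the somas, 8 of the 9 genes were higher in females by limma, against 13.3% of all genes, and 4 of the 9 had every female library above every male library, against 22.7% of all genes (Sycp1, Sycp3, Smc1b and Rec8). Per cell the count was also 8 of 9, against 2.86% of all genes, with a median of 3.57 for the 9 genes and -0.86 for all genes. With voom on the recovered reads the count was 2 (Stag3 and Rec8), with Smc1b at an adjusted p of 0.127 and Sycp1 at 0.109. Erythroid markers summed to between 17450 and 29323 CPM in female soma and between 3329 and 8504 CPM in male soma, and their part in the result was not tested. Without male soma replicate 2 the read depth count was 4, and without male soma replicate 3 it was 5. The shares of all genes were not computed for these fits or for voom. With female soma replicate 3 as the lone female library the median change was 0.65 in place of 1.98, and the count was 3 (Sycp1, Smc1b and Rec8), against 5.62% of all genes. In that fit, whose SE comes from the other groups, Smc1b stood at 1.31 ± 0.17 (limma, adjusted p = 0.000245) and Sycp1 at 0.81 ± 0.23 (adjusted p = 0.0437). Per cell Sycp1 was then at 1.37 ± 0.58 (limma, adjusted p = 0.189).

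Whether the germ cell to soma difference itself differed between the sexes was tested as an interaction. By read depth Syce2 alone passed, with a difference larger in females by 0.83 ± 0.23 (adjusted p = 0.00683), against 27.9% of all genes larger and 28.9% smaller in females. The other 8 genes had interactions between -1.24 ± 0.83 (Sycp1) and 0.52 ± 0.43 (Rec8). With female soma replicate 3 as the lone female soma library, and the spread taken from the other groups, 7 of the 9 passed, all larger in females, against 24.9% of all genes. Without female soma replicate 3 the count was 4, of which 3 were smaller in females, and the share of all genes was not computed. Per cell 1 of the 9 was larger in females and 3 were smaller, against 42.8% and 5.16% of all genes. The interaction of the group as a whole therefore turned on which female soma libraries were used.

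Over the 12 libraries, the read depth profiles of the 9 genes correlated with each other at Pearson r between 0.84 and 1.00 (median 0.98 over 36 pairs), given as a description because the libraries share germ cell content. Rec8 followed the mean profile least closely, at r = 0.909. Of the other named genes, those nearest to the mean profile over the 12 libraries were Pramel1 (r = 0.998), Fmr1nb (0.993), Hormad1 (0.993), Dock3 (0.993), Rundc3b (0.988) and Brsk2 (0.988). Hormad1, which encodes a protein of the meiotic chromosome axis, had 271 ± 40.0 CPM in female PGCs and 64.5 ± 2.67 CPM in male PGCs, with 8.20 ± 9.93 CPM in female soma and 0.0678 ± 0.0850 CPM in male soma (SD, n = 3 each). Pramel1 had 97.3 ± 15.7 CPM in female PGCs and 16.5 ± 0.986 CPM in male PGCs.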

How the data were processed

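RNA from 12 libraries was analysed in the 4 groups given by the sample titles, with no library left out of the main tests. The submitters' processing notes name build mm10 and, with no roles, limma 3.28.14, edgeR 3.14.0, DESeq2 1.12.3 and R 3.3.0, besides HTSeq 0.6.1p1, TopHat2 2.0.9 and Trim Galore 0.4.0. Annotation, strand setting and filter are not given there. The authors deposited 2 tables of log2 values for 12845 genes, 1 normalized to cell number and 1 to read depth. In the cell number table every deposited log2 value equalled log2 of a whole number plus 0.5, scaled per library, within 0.001 reads; these whole reads gave the CPM. The lowest value of the third-highest library of any gene was 5.07 CPM, so a gene high in 1 group is kept through that group. The labels give no sequencing batch.

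Each table was fitted whole with limma 3.58.1 in R 4.3.3 (4 group means, intensity trend, Benjamini-Hochberg adjustment over 12845 genes, threshold 0.05), and the steps were tested on simulated data. Locations and exon lengths came from GENCODE vM21 (GRCm38). Genes named are the 9 members, up to 4 of each list (2 by mean level, 2 by absolute change) and the 6 nearest profiles, and any other is said to be chosen later or lies beside a count or a label check. The members and lists were chosen with earlier results of these data known. Alternatives were each library left out, filters, scalings, variance settings, array weights, the groups compared alone, a replicate block, voom on the recovered reads and other pseudocounts (0.5, 1 and 5 CPM). Figures were drawn with matplotlib 3.10.9 in Python 3.11.15, where pandas 2.3.3 read the tables.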

Additional observations from a re-analysis of the deposited data

Results flagged for a closer look

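The difference between PGCs and soma differed between the sexes for 5 results, by a test of the interaction with limma. Of all genes, 27.9% were larger and 28.9% smaller in females by read depth, and 42.8% and 5.16% per cell. By read depth the difference of Syce2 was larger in females by 0.83 log2 units (adjusted p = 0.00683). Per cell the difference of Syce2 was larger in females by 1.92 (adjusted p = 5.47e-05), where all genes had a median of 0.91. Per cell the differences of Sycp1, Smc1b and Syce1 were smaller in females, at -2.28, -1.84 and -1.69 (adjusted p = 0.000184, 0.000228 and 0.03). Without female soma replicate 2 they were -1.11, -0.72 and -0.67 (adjusted p = 0.124, 0.235 and 0.482). In male soma Sycp1, Smc1b and Syce1 had only 8, 22 and 11 reads over the 3 libraries, so the 3 differences rest on levels near 0. Syce1 had 0 reads in male soma replicates 1 and 2, and its per-cell log2 values were -5.05, -6.52 and -0.62 in replicates 1, 2 and 3. Without male soma replicate 2 the value of Syce1 was -0.47 (adjusted p = 0.62), and its call was lost in 9 of the 12 fits that leave out a library. Smc1b was at -2.27 (adjusted p = 0.0862) without male soma replicate 3. Without the intensity trend or with robust variances the calls of Sycp1, Smc1b and Syce1 were lost (adjusted p between 0.165 and 0.552). With replicate 3 as the lone female soma library the 3 values were 0.36, 0.62 and 0.55, a fit that takes its spread from the other groups. The call of Syce2 per cell was kept in each of these fits.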

How the results depend on the processing

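The counts of 9 of 9 genes higher in PGCs than in soma held in both sexes and tables under the alternatives run, except that leaving out the lowest 25% of genes left 7 of the 9 to test, of which 7 passed. For female against male PGCs by read depth the count of 8 became 7 to 9 with a library left out. Per cell the count of 9 became 7 to 9 with a library left out, 5 with median centring, 4 with quantile normalization, 5 without the intensity trend and 3 with robust variances. For female against male soma by read depth the count of 8 became 4 to 8 with a library left out, 5 with robust variances, 2 with voom (TMM or library totals), 5 with log2(CPM + 5) and 3 without female soma replicates 1 and 2 (1 female soma library, assumed to vary like the other groups). Per cell the count of 8 became 6 to 8 with a library left out, 5 with robust variances and 2 without those replicates. For the interaction by read depth the count of 1 became 1 to 4 with a library left out, 0 with a change of at least 1 required, 4 with log2(CPM + 5) and 7 without those replicates. Beside that 0, limma gave 1 of the 9 genes an unadjusted p under 0.05 (Syce2), and voom called 1. Per cell the count of 4 became 3 to 5 with a library left out, 2 with median centring, and 1 with quantile normalization, without the trend or with robust variances. The share of all genes was computed only for the main fits and without female soma replicates 1 and 2. The other counts thus have no such share beside them.

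Directions turned only in the interaction and between the somas, and not every case is listed here. By read depth the interaction of Sycp3 (-0.01) was 1.01 without female soma replicate 2 (-0.78 to 1.01 with a library left out) and that of Syce1 (-0.20) was 1.38 with log2(CPM + 5). Without female soma replicates 1 and 2, Sycp3 was 1.54, Syce1 1.24, Smc1b 0.80, Stag3 0.98, Sycp1 0.61 and Sycp2 1.03 by read depth. Per cell, Sycp1 was then 0.36, Sycp2 1.79, Syce1 0.55, Smc1b 0.62 and Tex12 0.52. Between the somas per cell, Sycp2 was -0.19 and Stag3 -0.43 without those replicates, and Syce2 ran from -0.74 to 0.40 over the alternatives. The cause was not tested beyond the marker values given above. With voom and TMM, Rec8 changed between female and male PGCs by 4.40 ± 0.23 and Sycp2 by 1.57 ± 0.30 (adjusted p = 0.000217). With the replicate number as a block the count for female against male PGCs by read depth was 9, with Sycp2 at an adjusted p of 0.0323. Same-numbered libraries did not deviate together (correlations of -0.36 to 0.07 over 18 pairs). No label says whether they share a litter, batch or day, and these correlations cannot decide it. Intervals from the reads cover counting error only, and with 8 or fewer reads in male soma the levels of Sycp1 and Tex12 are limited by depth. The same holds for Syce1, with 11 reads in male soma, all in replicate 3.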
